A study of Mus musculus with 18 samples.

Results

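Reserve and regenerative stem cell genes are described here in mouse small intestinal organoids given an adrenergic agonist. The group was defined by name and holds 9 genes, Bmi1, Hopx, Lrig1, Tert, Mex3a, Clu, Ly6a, Anxa1 and Msi1, out of 55487 genes in the count table. Each symbol matched 1 row, and all 9 genes were among the 15247 that passed the filter on low counts. The rule names the genes and sets no threshold on a measured value, but it was drawn up with earlier results of these data known. The organoids were wild type and came from the small intestine of female C57BL/6 mice, were grown for 4 passages and were then treated for 4 days. An age is stated for mice the study purchased, but the sources used here do not tie it to the mice that gave the organoids. They received norepinephrine at 1 µM (5 samples), a catecholamine that acts on both α- and β-adrenergic receptors, its HCl vehicle (4 samples), UK14304 at 1 µM (5 samples), an agonist of α2-adrenergic receptors, or its DMSO vehicle (4 samples). The sample titles carry m1 to m5, and m is read here as the mouse, which neither the labels nor the methods spell out. Read in this way, mice 1 to 4 gave 1 sample to each of the 4 groups, and mouse 5 gave only the agonist samples, with no vehicle of its own. An organoid of this kind holds gut epithelium without nerves, vessels or immune cells.

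The crypt of the small intestine is renewed by cycling Lgr5-positive cells at its base. A further set of genes has been used to mark cells that divide more slowly or that take over when the crypt base cells are lost, and Bmi1, Hopx, Lrig1, Tert and Mex3a belong to it, although several of them are transcribed widely in the crypt. After injury the epithelium turns on genes of the fetal gut, among them Clu, Ly6a (Sca-1) and Anxa1, in a programme tied to the transcriptional coactivator YAP and its TEAD partners. Msi1 encodes Musashi-1, an RNA-binding protein of progenitor cells.

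Libraries held 21.87 to 27.85 M counted reads. Ribosomal RNA took over 1% of the counts in 7 of the 18 libraries (1.83% to 3.06%) and 0.313% to 0.619% in the other 11, and the first set held 3 of 4 DMSO samples but 1 of 5 UK14304 samples. The summed level of 6 epithelial genes ran from 5648 to 6241 CPM (counts per M reads, scaled by TMM). Of 11 genes of fibroblasts, muscle, endothelium and blood cells, the collagen gene Col1a2 had at most 2 counts, the endothelial Cdh5 at most 1 and the T cell gene Cd3e at most 3, and their summed level was 9.95 to 13.1 CPM with norepinephrine, 11.4 to 12.8 in HCl, 11.2 to 15.0 with UK14304 and 11.4 to 13.1 in DMSO. The list's largest contributor was Vim, with 152 to 237 counts. Pdgfrb had 39 to 82 counts, the blood cell gene Ptprc 8 to 33 and the endothelial Pecam1 9 to 24, so each was detected in all 18 libraries. These are bulk samples, in which fewer cells of a type and less RNA per cell cannot be told apart.

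Neither agonist changed any of the 9 genes past the threshold, an adjusted p under 0.05 in edgeR's quasi-likelihood test with the mouse as a block. For norepinephrine 0 of 9 passed, against 0.105% of all tested genes (16 of 15247), and for UK14304 0 of 9, against 1.22% (186 of 15247). With both agonists set against both vehicles it was 0 of 9, against 2.35% (358 genes). DESeq2 also called 0 of 9 in each. The norepinephrine sample of mouse 4 weighed heavily on the counts over all genes: without it 2529 of 15161 genes passed for norepinephrine, 1225 for UK14304 and 4234 for both, and without mouse 4 altogether 2300, 585 and 2746 of 15263. At an unadjusted p under 0.05 there were 0 with norepinephrine, 2 with UK14304 (Tert and Msi1) and 3 with both agonists together (Bmi1, Tert and Clu), where 8.4%, 14.8% and 21.6% of all tested genes reached that level. The median log2 fold change of the 9 was 0.02 for norepinephrine and 0.12 for UK14304, and that of all tested genes was -0.008 and -0.004. In no gene did the range of an agonist group lie clear of the range of its vehicle, which was seen in 1.42% of all genes for norepinephrine and in 3.51% for UK14304.

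**Figure D1:**
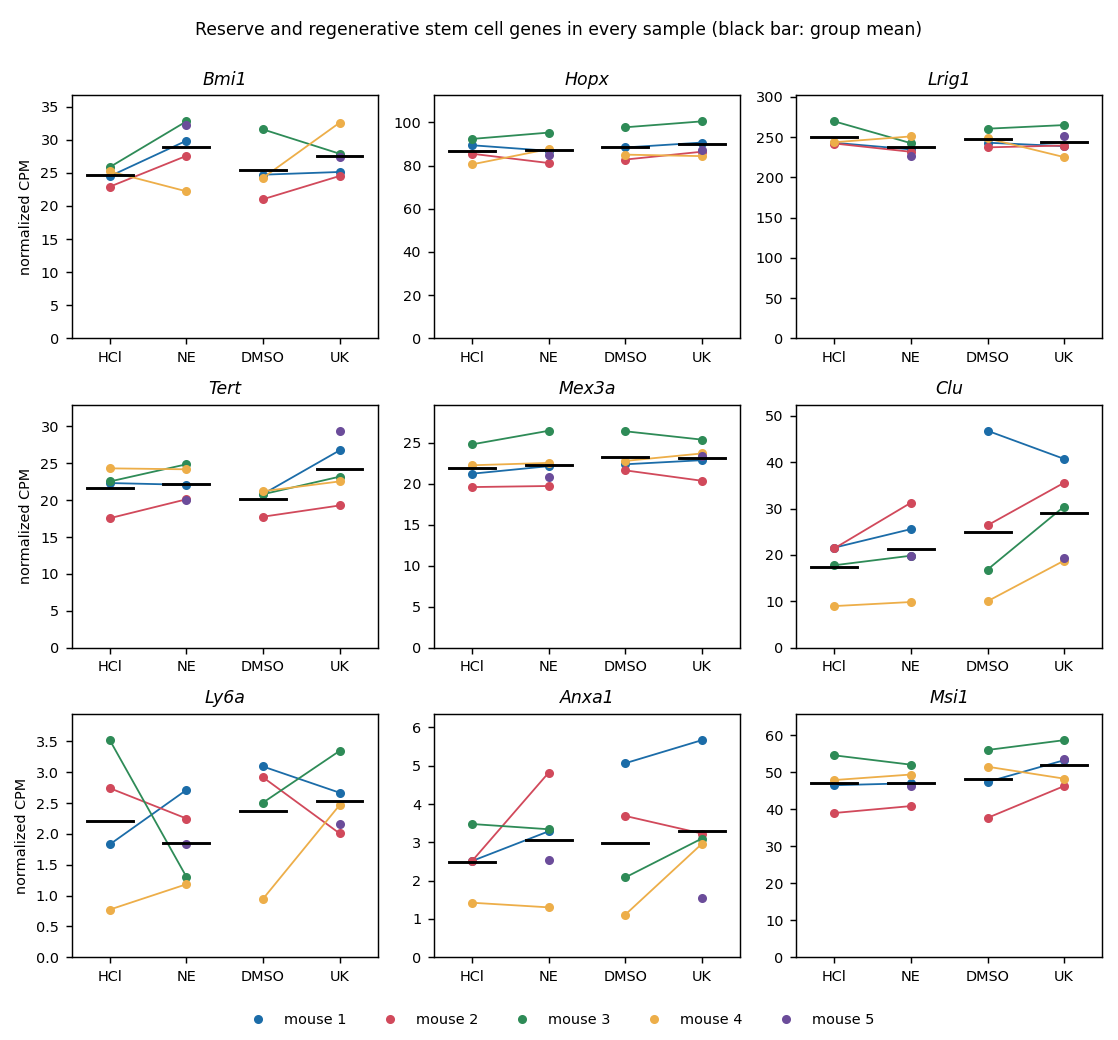
Normalized CPM of the 9 genes in all 18 samples, by group (HCl vehicle, NE for norepinephrine, DMSO vehicle, UK for UK14304), with linear axes from 0, a colour for each mouse, a line from a mouse's vehicle sample to its agonist sample, and a black bar at the group mean. Every agonist group overlaps its vehicle, and in all 4 groups mouse 3 is highest and mouse 2 lowest for Mex3a and Msi1.

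In the annotation of the count table (GRCm38), whose exons were counted, the reserve genes were Bmi1 (ENSMUSG00000026739) at chr2:18677018-18686629 on the plus strand, Hopx (ENSMUSG00000059325) at chr5:77086988-77115121 on the minus strand, Lrig1 (ENSMUSG00000030029) at chr6:94604529-94700158 on the minus strand, Tert (ENSMUSG00000021611) at chr13:73626911-73649843 on the plus strand and Mex3a (ENSMUSG00000074480) at chr3:88532395-88541396 on the plus strand. The fetal-like genes were Clu (ENSMUSG00000022037) at chr14:65968483-65981547 on the plus strand, Ly6a (ENSMUSG00000075602) at chr15:74994877-74998031 on the minus strand and Anxa1 (ENSMUSG00000024659) at chr19:20373428-20390944 on the minus strand. The Musashi gene was Msi1 (ENSMUSG00000054256) at chr5:115429599-115455698 on the plus strand.

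Per kilobase of exon, the scale on which genes can be compared, Hopx and Lrig1 stood above the others. Hopx, a small homeodomain protein that does not bind DNA, had 58.2 ± 3.58 CPM per kilobase (SD over the 18 samples), and Lrig1, a membrane protein that restrains ErbB receptors, 43.7 ± 2.17. The ranges of these genes did not overlap each other or that of any other member. Msi1 followed at 8.38 ± 0.982, Clu at 6.80 ± 3.02 and Bmi1 at 6.74 ± 0.925, and neighbours in this order overlapped. Mex3a (3.93 ± 0.358) and Tert (3.87 ± 0.524) overlapped too. Ly6a (1.86 ± 0.669) and Anxa1 (1.02 ± 0.443) were the lowest, and they also overlapped. Counts behind these levels ran from 5049 to 6754 per library for Lrig1 and from only 19 to 81 for Ly6a and 27 to 155 for Anxa1. The last pair also had the largest residual coefficients of variation in the fit, 26.27% and 26.61%.

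**Figure D2:**
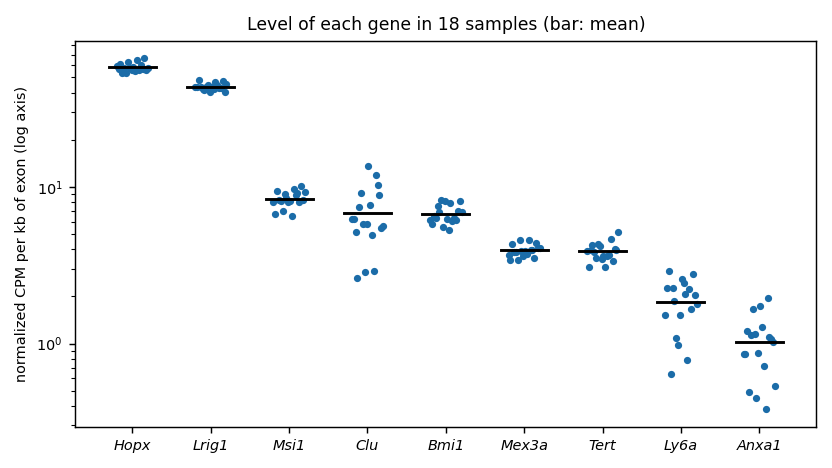
Normalized CPM per kilobase of exon of each gene in 18 samples, on a log axis, with genes ordered by their mean (black bar). Hopx and Lrig1 lie above the range of the others, and Clu, Ly6a and Anxa1 are spread most widely.

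Promoter sequences from RefSeq (GRCm38.p6) matched 6 of the 9 genes, all but Clu, Ly6a and Msi1. The 250 bases before the start of transcription in RefSeq are printed for Anxa1 and Lrig1, which had the widest and the narrowest spread between mice of these 6 genes. The Anxa1 window is chr19:20390672-20390921 and the Lrig1 window chr6:94700146-94700395. Both genes are on the minus strand, and both windows are written 5′ to 3′ along the gene. RefSeq starts these genes further downstream than the annotation of the count table does, so the Anxa1 window lies wholly inside the gene as placed above and the Lrig1 window overlaps its edge. Capitals mark matches to the motifs searched. TEAD factors bind GGAATG, and the other motifs were TGANTCA for AP-1, TGACGTCA for the cAMP response element and TATAAA for the TATA box. All were searched on both strands. The TEAD match of Anxa1 lies on the opposite strand and is printed as the reverse complement, CATTCC.
Anxa1: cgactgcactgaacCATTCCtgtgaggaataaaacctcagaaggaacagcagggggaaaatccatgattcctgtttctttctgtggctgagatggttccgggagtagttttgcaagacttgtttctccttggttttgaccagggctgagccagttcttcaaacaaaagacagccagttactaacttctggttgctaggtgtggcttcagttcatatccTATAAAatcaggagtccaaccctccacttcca
Lrig1: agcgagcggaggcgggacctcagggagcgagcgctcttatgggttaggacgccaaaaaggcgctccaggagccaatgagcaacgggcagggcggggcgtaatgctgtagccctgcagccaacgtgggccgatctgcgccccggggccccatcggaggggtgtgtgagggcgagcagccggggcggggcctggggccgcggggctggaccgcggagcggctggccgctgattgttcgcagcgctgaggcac
The Anxa1 window was 46% G and C with 2 CG dinucleotides, and held a TATA match at -32 and a TEAD match at -236. Lrig1 had 71.6% G and C, 26 CG dinucleotides and no match. Over 32817 promoter windows of that length the medians were 52.4% and 6 CG. Bmi1 (chr2:18676768-18677017, plus strand) had a TEAD match at -228 with 70.4% G and C and 21 CG. Hopx (at 2 starts), Tert and Mex3a had 52.4% to 64% G and C, 8 to 19 CG and no match to any of the 4 motifs. A TEAD match was present in 12.6% of all windows, TATA in 12.4%, AP-1 in 6.75% and the cAMP response element in 1.55%. A match is a description of the letters and not a site.

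Among the genes used as marks of reserve stem cells, Bmi1 had the highest fold change with norepinephrine. Bmi1 encodes a RING finger subunit of Polycomb repressive complex 1, which silences the Ink4 locus. In HCl its level was 24.5, 22.9, 25.9 and 25.2 CPM in mice 1 to 4, and with norepinephrine 29.8, 27.5, 32.8, 22.2 and 32.2 CPM in mice 1 to 5. It was thus higher in 3 of 4 mice and lower in mouse 4. The log2 fold change was 0.21 ± 0.102 (SE), with an adjusted p of 0.592 and a 95% interval of -0.01 to 0.42. Without the norepinephrine sample of mouse 4 it was 0.34 with an adjusted p of 0.00604, and without mouse 4 altogether 0.30 with 0.00196, settings in which 2529 of 15161 and 2300 of 15263 genes passed, against 16 with all samples. With UK14304 the values were 25.1, 24.5, 27.9, 32.6 and 27.3 CPM against 24.7, 21, 31.5 and 24.2 in DMSO. Here mouse 4 had the largest rise and mouse 3 a fall, and the log2 fold change was 0.10 (-0.11 to 0.32, adjusted p = 0.642). The gene model Gm5946 is 96.955% identical to Bmi1 transcripts over 2660 bases, and reads that map equally to both were not counted, so the Bmi1 level is uncertain to that extent.

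Tert, the catalytic subunit of telomerase, was the reserve gene with the highest fold change upon UK14304. Its values were 20.8, 17.8, 20.8 and 21.2 CPM in DMSO and 26.7, 19.3, 23.2, 22.5 and 29.4 CPM with UK14304, higher in 4 of 4 mice, a pattern that 14% of all genes shared. In mice 1 to 4 the log2 ratio to the own vehicle was 0.09 to 0.36. In the fit, which also holds mouse 5, the log2 fold change was 0.24 ± 0.0856, the interval 0.06 to 0.42 and the adjusted p 0.204. Once each library was corrected for its GC trend, Tert passed (0.29, adjusted p = 0.0101), as did 624 of all genes. With norepinephrine Tert changed by 0.02 on the log2 scale (-0.16 to 0.20), and 2 of 4 mice were higher. The difference between the agonist effects on Tert was 0.22 (-0.03 to 0.47, adjusted p = 1). Mouse 5, which has no vehicle, enters both effects and this difference through the block. It had 29.4 CPM with UK14304 and 20.0 with norepinephrine. Without its norepinephrine sample the norepinephrine value was 0.08.

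Hopx, Lrig1 and Mex3a had narrow intervals around 0. Over all samples Hopx ran from 80.6 to 100.5 CPM, Lrig1 from 225.2 to 269.6 CPM and Mex3a, an RNA-binding protein of slowly cycling crypt cells, from 19.6 to 26.5 CPM. For Hopx the log2 fold change was 0.01 with norepinephrine (-0.07 to 0.09) and 0.03 with UK14304 (-0.05 to 0.11). Mex3a gave 0.03 (-0.08 to 0.14) and 0.00 (-0.11 to 0.11). Lrig1 gave -0.07 (-0.16 to 0.02, adjusted p = 0.616) and -0.02 (-0.10 to 0.07). The Lrig1 value for norepinephrine passed only without mouse 4 (-0.10, adjusted p = 0.0434), where 2300 of 15263 genes did. Hopx shares 412 exon bases with Hopxos, Lrig1 144 with Slc25a26 and Mex3a 82 with Mir1905, each on the opposite strand, and reads of such stretches were counted for neither gene.

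Of the 3 fetal-like members, Clu was higher with norepinephrine in 4 of 4 mice and with UK14304 in 3 of 4, but it did not pass. Clu encodes clusterin, a secreted chaperone that marks revival stem cells after injury. In HCl its level was 21.6, 21.4, 17.8 and 8.98 CPM in mice 1 to 4, and with norepinephrine 25.6, 31.3, 19.8, 9.86 and 19.9 CPM in mice 1 to 5. A rise in 4 of 4 mice was seen in 5.32% of all genes. The groups overlapped, with 3 of 5 norepinephrine samples inside the HCl range and 2 above it. In DMSO the values were 46.8, 26.4, 16.9 and 10.03 CPM, and with UK14304 40.7, 35.6, 30.4, 18.8 and 19.3 CPM. Mouse 1 fell from the highest value of all samples while mice 2, 3 and 4 rose. The log2 fold change was 0.35 ± 0.189 for norepinephrine (-0.05 to 0.76, adjusted p = 0.604), 0.37 ± 0.177 for UK14304 (-0.01 to 0.75, adjusted p = 0.346) and 0.36 ± 0.132 for both (0.08 to 0.65, adjusted p = 0.148).

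The Clu call depended on the settings. Without the DMSO sample of mouse 1 the UK14304 value was 0.69 with an adjusted p of 0.019 and that of both agonists 0.52 with 0.00685, and without mouse 1 altogether both agonists gave 0.52 with 0.0306. Over all genes 130 and 194 of 15401 passed without that DMSO sample and 120 of 15324 without mouse 1. With no filter on low counts the fold changes stayed at 0.36 and 0.37, with adjusted p of 0.0017 for norepinephrine and 8.35e-05 for UK14304, where 153 and 627 of 33375 genes passed. The difference between the agonist effects on Clu was 0.02 (-0.52 to 0.56).

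Anxa1, the phospholipid-binding annexin A1, and Ly6a, a GPI-anchored surface protein, were low and variable. Anxa1 had 2.51, 2.51, 3.48 and 1.42 CPM in HCl, 3.29, 4.82, 3.34, 1.30 and 2.54 with norepinephrine, 5.07, 3.69, 2.08 and 1.11 in DMSO and 5.67, 3.23, 3.10, 2.96 and 1.56 with UK14304. Mouse 4 had the lowest Anxa1 value of its group everywhere except with UK14304, where mouse 5 was lower. Its log2 fold change was 0.40 (-0.22 to 1.03, adjusted p = 0.654) and 0.31 (-0.27 to 0.90, adjusted p = 0.607). Ly6a had 1.83, 2.74, 3.52 and 0.772 CPM in HCl, 2.71, 2.25, 1.30, 1.18 and 1.83 with norepinephrine, 3.09, 2.92, 2.51 and 0.945 in DMSO and 2.67, 2.01, 3.35, 2.47 and 2.16 with UK14304. For Ly6a 2 of 4 mice were higher with each agonist, and the log2 fold changes were -0.19 (-0.82 to 0.45) and 0.17 (-0.42 to 0.76). The wide intervals of both genes, at 19 to 155 counts a library, allow changes in either direction. Ly6c1 is 96.578% identical to Ly6a over 263 bases.

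Msi1 was nearly level with norepinephrine and 1.08-fold higher with UK14304, and passed with neither. Its values were 47.3, 37.6, 56.0 and 51.4 CPM in DMSO and 53.2, 46.2, 58.6, 48.2 and 53.6 CPM with UK14304, with mice 1, 2 and 3 higher and mouse 4 lower. The log2 fold change was 0.12 ± 0.0515 (0.01 to 0.23, adjusted p = 0.3). It passed without mouse 4 (0.18, adjusted p = 0.0253) and after removal of the GC trend (0.18, adjusted p = 0.0147), where 585 of 15263 and 624 of 15247 genes did. In HCl it had 46.4, 38.9, 54.5 and 47.8 CPM and with norepinephrine 47.0, 40.8, 52.0, 49.3 and 46.2 CPM, a log2 fold change of 0.01 (-0.10 to 0.11).

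**Figure D3:**
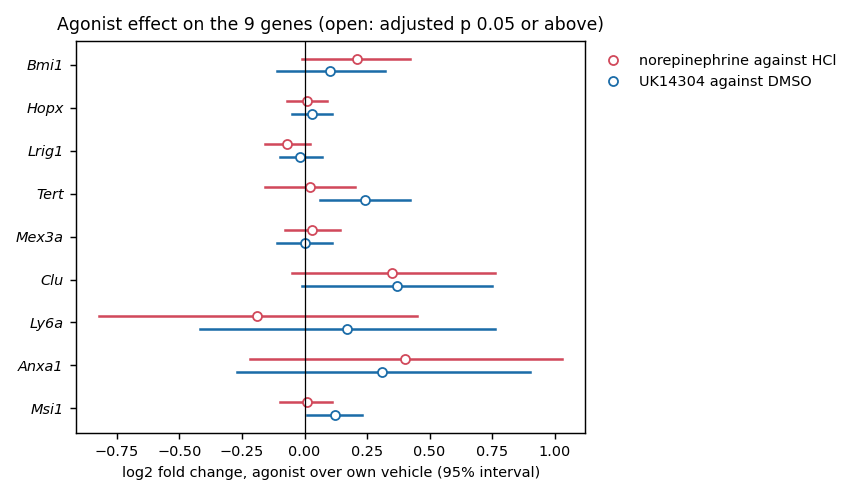
Log2 fold change of the 9 genes for each agonist over its own vehicle, with bars for the 95% interval. All points are open, since 0 of 9 genes passed for either agonist, and the intervals are widest for Ly6a, Anxa1 and Clu.

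The agonists were also set against each other, and the vehicles against each other. The difference between the 2 agonist effects passed in 0 of 9 genes and in 0% of all tested genes. It ranged from -0.10 (Bmi1) to 0.36 (Ly6a) on the log2 scale, with 0 of 9 at an unadjusted p under 0.05 (2.66% of all genes) and 0 called by DESeq2. HCl against DMSO also passed in 0 of 9 and in 0% of all genes, and by DESeq2 in 0 of 9. Clu alone was below an unadjusted p of 0.05 there, as were 1.82% of all genes, at -0.44 (-0.85 to -0.03, adjusted p = 1), with 17.4 ± 5.91 CPM in HCl and 25.0 ± 16.0 CPM in DMSO (SD, n = 4 each). With no filter on low counts this vehicle difference passed (adjusted p = 2.35e-05), as it did for 17 of 33375 genes. Over 30 alternative settings the Clu value ran from -0.60 to -0.13. The gap was widest in mouse 1 (21.6 CPM in HCl, 46.8 in DMSO), and mouse 3 went the other way (17.8 and 16.9).

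More of the 9 genes passed the test of differences between the 5 mice than the test of either agonist. In the F test of the mouse terms, 5 of 9 passed, against 13.8% of all tested genes: Msi1 (adjusted p = 0.000183), Clu (0.000433), Mex3a (0.00152), Hopx (0.00444) and Anxa1 (0.0331). Tert (0.0754), Ly6a (0.173), Lrig1 (0.226) and Bmi1 (0.304) did not. DESeq2 called 7 of 9. Whether samples of 1 number were split from 1 organoid culture is not stated in the sources used here, so the animal and the history of its culture cannot be told apart, and mouse 5 has 2 samples where the others have 4.

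The fetal-like members had the widest spread between mice. At equal treatment Clu was 2.84-fold higher in mouse 1 than in mouse 4, its extremes, with 33.7 ± 12.0 CPM against 11.9 ± 4.601 (SD, n = 4 each). Anxa1 differed 2.44-fold between these mice, with 4.13 ± 1.48 and 1.70 ± 0.851 CPM. Ly6a was also lowest in mouse 4, at 1.34 ± 0.768 CPM, and highest in mouse 3, at 2.67 ± 1.01, a fitted ratio of 1.96. The log2 ranges of Clu and Anxa1, 1.51 and 1.28, were above those of 98.5% and 97.7% of all tested genes, whose median was 0.20.

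The reserve genes and Msi1 had another order and narrower ranges. All 5 reserve genes and Msi1 were lowest in mouse 2, and all of them except Tert were highest in mouse 3. Of all 15247 tested genes 3677 were lowest in mouse 2, 4303 in mouse 3 and 1865 in mouse 4. The lowest rank was a near tie for Lrig1, at -0.01 in mouse 2 relative to mouse 1 on the log2 scale. It was so for Hopx too, at -0.08 in mouse 2 and -0.07 in mouse 4. Msi1 had 40.9 ± 3.78 CPM in mouse 2 and 55.3 ± 2.77 in mouse 3 (1.35-fold), Mex3a 20.3 ± 0.932 and 25.8 ± 0.809 (1.27-fold) and Hopx 84.0 ± 2.41 and 96.5 ± 3.46 (1.15-fold, SD, n = 4 each). Tert had 18.7 ± 1.23 in mouse 2 and 22.8 to 24.7 CPM as the mean of each other mouse. Lrig1 had the narrowest range, 1.09-fold. Of 9 crypt base stem cell genes, 5 were also lowest in mouse 2, among them Olfm4, Axin2 and Ascl2. The others had another order: Lgr5, Rnf43 and Slc12a2 were lowest in mouse 1 and Gkn3 in mouse 3, and Lgr5 was highest in mouse 4. Of the 9 crypt base genes 8 differed between mice, against 13.8% of all tested genes. All 5 Paneth cell genes were lowest in mouse 2, with a summed level of 1906 to 2334 CPM against 2081 to 3574 in the other mice, and all 4 enterocyte genes were lowest in mouse 3 (6005 to 7060 CPM against 8589.6 to 10666). Their part in the levels of the 9 genes was not tested.

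The mouse calls moved with the mice in the fit, over all genes as in the members. All genes gave 2110 calls with every sample, 808 without mouse 2, 545 without mouse 3 and 4459 without mouse 4. Without mouse 4 Clu no longer passed (adjusted p = 0.111), while Bmi1 (0.000612), Lrig1 (0.00346) and Tert (0.00985) did. Hopx did not pass without mouse 3 (0.819), Mex3a without mouse 3 (0.393) or mouse 2 (0.053), and Msi1 without mouse 2 (0.0781). Anxa1 lost its call in 13 of 23 settings that left out a sample or a mouse, with adjusted p from 0.00603 to 0.166. Without the UK14304 sample of mouse 4 all 9 genes passed, as did 3189 of 15167 genes.

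**Figure D4:**
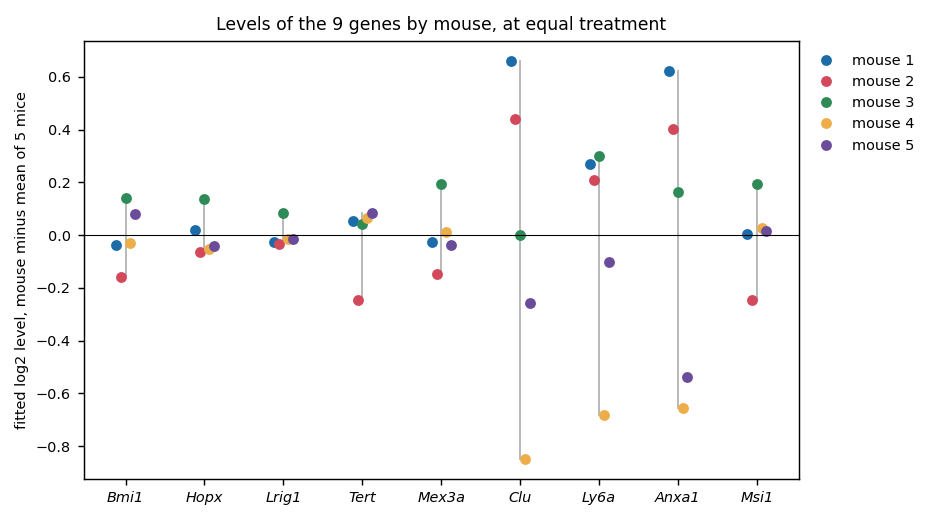
Fitted log2 level of the 9 genes in each mouse at equal treatment, minus the mean of the 5 mice, with a grey line from the lowest to the highest mouse. Mouse 4 is lowest for Clu, Ly6a and Anxa1, and mouse 2 is lowest for the other 6 genes.

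Other genes of the fetal-like programme were followed in a list of which 12 were tested, while Gja1 and Spp1 had at most 6 counts in any library and were not. With UK14304 4 of 12 fell and 0 rose, against 1.04% of all tested genes that fell. They were Sprr1a, a small proline-rich protein of the cornified envelope, Cldn4, a tight junction claudin, Plaur, the urokinase receptor, and Areg, the EGF receptor ligand amphiregulin. The list's median log2 fold change was -0.23. Cldn4 had 41.5 to 69.5 CPM in DMSO (median 41.9) and 27.6 to 50.3 with UK14304 (median 32.7), and it was lower in 4 of 4 mice, as were 15.5% of all genes (log2 fold change -0.49, adjusted p = 0.0047). Sprr1a fell by 0.68 (adjusted p = 0.0205), Plaur by 0.49 (0.0205) and Areg by 0.35 (0.0143), all in 4 of 4 mice. Anxa8, a further annexin, had the highest positive value at 0.58 (0.18 to 0.98, adjusted p = 0.172) and was higher in 4 of 4 mice, with 10 to 29 counts in DMSO and 15 to 44 with UK14304.

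With norepinephrine 0 of 12 of these genes passed in edgeR, where 0.0131% of all genes rose and 0.0918% fell, with 7 at an unadjusted p under 0.05 and 1 called by DESeq2 (Cldn4). The 4 genes that fell upon UK14304 had values of -0.45, -0.34, -0.48 and -0.19 with norepinephrine, in the order Sprr1a, Cldn4, Plaur and Areg. The difference between the agonist effects passed for 0 of the 12 (0 at an unadjusted p under 0.05 and 0 by DESeq2).

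Over all genes the 186 UK14304 calls became 6 without the mouse block and 78 with a term for the ribosomal RNA share. They became 24 without mouse 2 and 23 without mouse 3. The UK14304 calls of this list also needed the mouse block. Without it 0 of 12 passed, with adjusted p from 0.411 to 0.547 for the same 4 genes, although their log2 fold changes stayed at -0.63 (Sprr1a), -0.48 (Cldn4), -0.46 (Plaur) and -0.35 (Areg). With a term for the ribosomal RNA share, which split DMSO and UK14304 samples unevenly, only Cldn4 passed, and the others had -0.54 (Sprr1a, adjusted p = 0.167), -0.42 (Plaur, 0.17) and -0.32 (Areg, 0.101). Without mouse 2 or without mouse 3 none passed, and 1 of 12 (Cldn4) passed without the DMSO sample of mouse 2 or 3 or the UK14304 sample of mouse 2 or 3. Cldn4 and Areg alone passed without mouse 1 or its DMSO sample. Of the 12 genes 11 differed between mice, but 5 without mouse 2, where over all genes 2110 and 808 did. Like Clu, Ly6a and Anxa1, 6 of the 12 were lowest in mouse 4, as were 1865 of all 15247 tested genes. Among the 6 were Msln (3.39-fold between mice 1 and 4) and Il33 (2.71-fold, at 6 to 37 counts a library). Sprr1a, Cldn4 and Areg were instead lowest in mouse 3, as the enterocyte genes were.

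**Figure D5:**
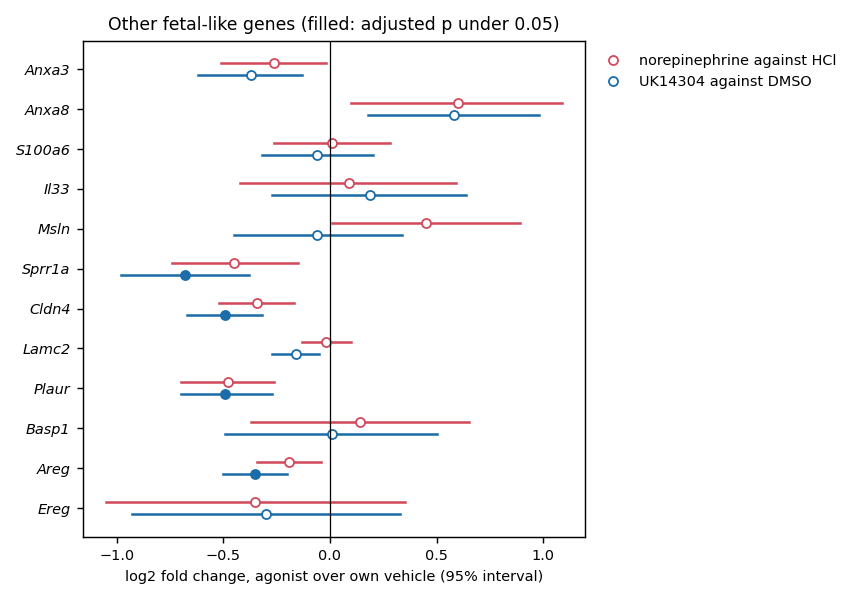
Log2 fold change with 95% intervals of 12 other fetal-like genes for each agonist over its own vehicle. Filled points, which passed, are Sprr1a, Cldn4, Plaur and Areg with UK14304, all below 0.

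The pathways around the members showed few calls. Of 22 target genes of YAP and TEAD, 16 were tested and 0 passed for either agonist by edgeR or DESeq2, with 3 at an unadjusted p under 0.05 for each. The largest values were 0.94 for Igfbp3 with UK14304 (adjusted p = 0.237) and 0.65 for Nt5e with norepinephrine (0.568). Both genes had few counts. Igfbp3 had 5 to 9 a library in DMSO and 9 to 22 with UK14304, and Nt5e 6 to 23 in HCl and 12 to 27 with norepinephrine. All 14 components of the Hippo kinase cascade and its effectors were tested and 0 passed by either tool, with 0 and 2 at an unadjusted p under 0.05 for norepinephrine and UK14304. Tead4, at -0.44 with norepinephrine (0.592), moved most. Of 15 other Polycomb repressive complex 1 genes 0 passed by either tool (1 and 2 unadjusted), and the largest value was 0.20 for Pcgf5 with norepinephrine (0.592). Cdkn2b, a cell cycle inhibitor of the Ink4 locus, had -0.15 with norepinephrine (0.556) and -0.18 with UK14304 (0.0637), and it fell by 0.16 with both agonists together (0.0131). DESeq2 called it for UK14304 too (-0.18, adjusted p = 0.0306), and the edgeR call for both agonists was lost without the block and without mouse 1, 2 or 3. Over all genes these settings left 23, 120, 36 and 37 calls for both agonists, against 358. Its neighbour Cdkn2a had at most 6 counts.

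Telomerase and shelterin genes gave 0 calls of 12 tested by either tool (0 and 2 unadjusted), with Pot1b at 0.20 with norepinephrine (0.592) and Terf1 at 0.19 with UK14304 (0.315). The telomerase RNA Terc had 0 counts in every library, but these were poly(A) libraries, so the count does not tell whether the organoids held it. Of 6 ErbB receptors and inhibitors, which include the Lrig1 relatives Lrig2 and Lrig3, 0 passed by either tool (0 and 1 unadjusted), and Erbb2 had -0.12 with UK14304 (0.346). Of 5 relatives and partners of Musashi and Mex3, 0 passed by either tool with 0 unadjusted, and Mex3d had -0.09 with UK14304 (0.49).

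Among 9 relatives of Anxa1, Anxa2 fell with UK14304, by 0.23 (adjusted p = 0.0047), from 613.8 ± 72.2 CPM in DMSO (SD, n = 4) to 521.5 ± 44.5 (n = 5). It did not pass without the mouse block (0.346), without mouse 2 (0.102) or without mouse 3 (0.106). Over all genes these settings left 6, 24 and 23 UK14304 calls, against 186, and with all samples 1.04% of tested genes fell. Of these 9 genes 5 differed between mice, against 13.8% of all tested genes, and Anxa10 did so by 6.93-fold. Only Ly6d and Ly6e of 8 Ly6a relatives were tested. Ly6d had 0.54 with UK14304 (0.371), at 8 to 34 counts in DMSO and 10 to 36 with UK14304. Of 9 cell cycle inhibitors and other genes of slowly dividing cells, Cdkn1a (p21), which arrests the cycle, fell with UK14304, as did 1.04% of all tested genes. Its levels were 219.9 to 285.9 CPM in DMSO (median 245.8) and 157.0 to 219.5 with UK14304 (median 206.5). These ranges did not overlap, but only by 219.5 against 219.9 CPM, and 3.51% of all genes had ranges without overlap. The log2 fold change was -0.32 (adjusted p = 0.00451, but 0.346 without the block, 0.1 without mouse 2 and 0.14 without mouse 3). Over all genes these settings left the 6, 24 and 23 calls given above.

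Markers of other cells are given beside these results. Of 9 crypt base stem cell genes 0 passed with either agonist by edgeR or DESeq2 (0 and 2 unadjusted). For both agonists together edgeR called 0 and DESeq2 1, where DESeq2 called 587 of all 15247 genes. With UK14304 Slc12a2 had 0.19 (adjusted p = 0.213) and Olfm4 0.18 (0.286). These genes gained a UK14304 call in 4 and 2 of 31 alternative settings. Paneth cell genes fell: 2 of 5 with norepinephrine (Lyz1 by 0.37 and Defa22 by 0.69) and 3 of 5 with UK14304 (Lyz1 by 0.31, Defa22 by 0.70 and Ang4 by 0.27). Over all tested genes 0.0918% fell with norepinephrine and 1.04% with UK14304. All 5 Paneth cell genes had an unadjusted p under 0.05 in edgeR with each agonist, against 8.4% and 14.8% of all genes. DESeq2 called 3 and 4 of the 5. None of these edgeR calls held without the block, where the adjusted p were 0.713 and 0.723 for Lyz1 and Defa22 with norepinephrine and 0.508, 0.518 and 0.543 for Lyz1, Defa22 and Ang4 with UK14304, at log2 fold changes of -0.35, -0.64, -0.29, -0.68 and -0.28. With norepinephrine both calls were also lost without mouse 1 (0.0966 each) or mouse 3 (0.0745 for Lyz1, 0.0728 for Defa22), and that of Defa22 without mouse 2 (0.0911). With UK14304 Lyz1 lost its call without mouse 3 (0.0815) and Ang4 without mouse 1 (0.0709), 2 (0.101) or 3 (0.207) and with the ribosomal RNA term (0.0707). Over all genes 0 norepinephrine and 6 UK14304 calls were left without the block. Without mouse 1, 2 or 3 there were 4, 7 and 5 for norepinephrine and 98, 24 and 23 for UK14304. Ang4 gained a norepinephrine call in 10 of 31 alternative settings. With both agonists together 5 of 5 Paneth cell genes passed, against 2.35% of all genes. Of 4 goblet cell genes Agr2 fell with UK14304, by 0.16 (0.0324), against 1.04% of all tested genes that fell. This call was lost in 16 of 31 alternative settings. Among them were the fits without the block (-0.18, adjusted p = 0.26) and with the ribosomal RNA term (-0.16, 0.115). It was also lost without the DMSO sample of any 1 mouse (0.115 to 0.127) and without mouse 1, 2, 3 or 5 (0.0533 to 0.28). Of the 4 genes 3 were lower with UK14304 and 1 higher. Muc2 did not pass and had a mean of 266.2 CPM in DMSO and 285.9 with UK14304. Enteroendocrine (6 tested), tuft (2), enterocyte (4), epithelial (6), non-epithelial (4) and interferon response (8) genes gave 0 calls in edgeR for either agonist, and DESeq2 added 1 enterocyte gene for UK14304. At an unadjusted p under 0.05 these lists had 0, 0, 0, 0, 1 and 1 genes with norepinephrine and 0, 1, 2, 0, 0 and 2 with UK14304. Their largest values were 0.21 for Neurod1 and -0.62 for Ifit3 with norepinephrine, and 0.18 for Dclk1, -0.28 for Apoa4 and 0.58 for Ptprc with UK14304. The part of these cell types in the results above was not tested.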

How the data were processed

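The authors prepared poly(A) libraries, mapped 50 bp single reads with STAR 2.7.3 to GRCm38 and counted reads on exons. The deposited table holds raw counts for 55487 genes. Its header names featureCounts 2.0.1 with Ensembl release 102, while the submitters' notes name Subread 1.6.4. Counting ignored strand, and reads shared by genes were dropped.

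The fit used edgeR 4.0.16 under R 4.3.3, with TMM scaling, filterByExpr by group and a robust quasi-likelihood model. All 18 samples entered 1 model of group and mouse, and p-values were adjusted by Benjamini-Hochberg over 15247 genes. Samples were paired by the number in their titles (m1 to m5), read as the mouse: the deviations of an agonist sample and its own vehicle from the same mouse had a mean correlation of 0.317 over 8 pairs (lowest 0.119), against -0.0784 for different mice. Over all 25 pairs of 1 mouse the mean was 0.277 (lowest -0.212). CPM are TMM-normalized. Alternatives used DESeq2 1.42.0, other filters and scalings, and left out samples or mice. Sequence identity was searched with blastn 2.17.0 (at least 95% over 50 bases). 0 per-sample columns were left unused.

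The 9 genes and all lists were chosen with earlier results of these data known. The text names the members, every listed gene that passed for an agonist, and otherwise up to 3 genes of a list with the largest fold change. Further genes named for their spread between mice, and Anxa8, were chosen after their values were seen. An item of the lists is not reported here.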

Additional observations from a re-analysis of the deposited data

Results flagged for a closer look

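In 36 sets of samples, each of 1 gene in 1 group, 2 held a sample far from the others of its group. Chance gives about 1 such set in 20. Lrig1 was at 269.6 CPM in the HCl sample of mouse 3, where the other 3 HCl samples had 242.1 to 243.7 CPM. Tert was at 17.8 CPM in the DMSO sample of mouse 2, where the others had 20.8 to 21.2 CPM. Both samples come from the mouse that was at the same end of the gene's levels in the fit of all groups.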

How the results depend on the processing

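In the comparisons of agonists, the counts of members that passed (0 of 9 each) moved under 2 changes of processing. With no filter on low counts 1 passed for norepinephrine, 1 for UK14304 and 1 for HCl against DMSO (Clu each time) and 3 for both agonists (Bmi1, Clu and Anxa1), and after removal of the GC trend with the block 2 passed for UK14304 and 2 for both agonists (Tert and Msi1). Differences between mice passed in 8 of 9 members under either change, where 2682 of 33375 and 3860 of 15247 genes did. With no filter 17 of 33375 genes passed for HCl against DMSO. Leaving out 1 sample or mouse gave 0 to 2 members for norepinephrine, 0 to 1 for UK14304, 0 to 1 for both agonists and 2 to 9 between mice, where all genes gave 4 to 2529, 23 to 1225, 36 to 4234 and 545 to 4459 calls. Of the other fetal-like genes, it left 0 to 6 lower with UK14304, 0 to 6 lower with both agonists and 5 to 11 that differed between mice. Without the block 0 of them were lower with UK14304 and 0 with both agonists, and with the ribosomal RNA term 1 was lower with UK14304. The cause was not tested.

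Signs changed only in values that did not pass. After removal of the GC trend Bmi1 with UK14304 was -0.01, Hopx with norepinephrine -0.01, Lrig1 0.04 with UK14304 and 0.01 with both agonists, and the difference between the agonist effects on Clu -0.02, which was -0.07 without the block. DESeq2 gave Ly6a 0.04 with both agonists. Leaving out samples or mice, the values ran from -0.02 to 0.20 for Bmi1 with UK14304, -0.01 to 0.05 for Hopx with norepinephrine, -0.03 to 0.02 for Lrig1 with UK14304, -0.02 to 0.08 for Tert and -0.01 to 0.04 for Msi1 with norepinephrine, -0.42 to 0.24, -0.11 to 0.39 and -0.23 to 0.18 for Ly6a with norepinephrine, UK14304 and both, -0.01 to 0.24 for Mex3b with norepinephrine, -0.02 to 0.10 for Msi2 with UK14304 and -0.18 to 0.33 for the Clu difference. The members' mean levels moved by less than 1 SD on raw totals.

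Over all genes, the 16, 186 and 358 calls for norepinephrine, UK14304 and both agonists became 0, 6 and 23 without the block, 34, 272 and 587 with DESeq2, 153, 627 and 1386 with no filter, 36, 624 and 883 after removal of the GC trend and 16, 78 and 176 with the ribosomal RNA term, and UK14304 with DMSO alone gave 525. The largest move came without the norepinephrine sample of mouse 4, with 2529, 1225 and 4234 calls. Of the UK14304 calls 27 were higher and 159 lower, but 208 and 416 after removal of the GC trend. Depth limits Ly6a and Anxa1 most.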
